A study of Mus musculus with 22 samples.

Results

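The genes described here carry arginine into the macrophage and turn it into nitric oxide, ornithine and polyamines. They were chosen by symbol as a list of 9: Nos2, Arg1, Arg2, Ass1, Asl, Slc7a2, Slc7a1, Gch1 and Odc1. Of these, 8 had a probe set on the array, each exactly 1, among 19505 genes with a probe set, and Ass1 was not analysed here. The cells were bone marrow-derived macrophages (BMDM), grown from the marrow of C57/bl6 mice in medium conditioned by L929 cells, and RNA was measured on 22 Clariom S arrays. Ctrl cells (M0, n = 6 arrays) had neither agent. HMB cells (n = 6) had 1 mM β-hydroxy-β-methylbutyrate, a leucine metabolite sold as a dietary supplement, for 48 h. LPS cells (n = 5) had 10 ng/ml lipopolysaccharide, a bacterial wall component that drives M1-like polarization, for 48 h, and HMB+LPS cells (n = 5) had both. Ctrl and HMB arrays carry the numbers 1 to 6 and the others 2 to 6. The labels do not say whether the arrays of a group came from separate animals or cultures, so each p-value reflects the scatter among these arrays alone, which may be technical.

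Arginine has competing fates in a macrophage. Inducible nitric oxide synthase (Nos2) oxidises it to nitric oxide and citrulline with the help of tetrahydrobiopterin, while arginases split it into ornithine and urea, and ornithine decarboxylase (Odc1) takes ornithine into the polyamines. In mouse macrophages Nos2 is a textbook marker of activation by bacterial products and Arg1 of activation by interleukin-4, although Arg1 can also be induced through Toll-like receptors.

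Promoter sequences were matched by symbol in a RefSeq table (build GRCm38.p6) for 4 of the 9 genes. The 250 bases before the start site are shown for 3 of them, because Gch1 changed most regularly with LPS, Odc1 is the polyamine enzyme, and Slc7a1 differed between arrays that had no LPS. Capitals mark TGACG, the core of the cAMP response element, and TGANTCA, the AP-1 site, searched on both strands together with the E-box CACGTG, which none of these 3 windows held. No match of these motifs overlaps another in the windows shown.
Gch1, chr14:47189414-47189663, minus strand: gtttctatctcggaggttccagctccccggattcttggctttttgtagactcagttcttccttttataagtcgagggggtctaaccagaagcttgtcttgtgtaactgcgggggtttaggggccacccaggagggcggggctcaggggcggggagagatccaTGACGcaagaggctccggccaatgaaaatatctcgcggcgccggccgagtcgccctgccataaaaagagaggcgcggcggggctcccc
Odc1, chr12:17544623-17544872, plus strand: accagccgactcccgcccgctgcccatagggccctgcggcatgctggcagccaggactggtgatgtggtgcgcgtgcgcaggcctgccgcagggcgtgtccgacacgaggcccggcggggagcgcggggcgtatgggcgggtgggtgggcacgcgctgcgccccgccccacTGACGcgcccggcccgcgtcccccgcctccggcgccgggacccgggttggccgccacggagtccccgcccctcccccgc
Slc7a1, outer start site, chr5:148399905-148400154, minus strand: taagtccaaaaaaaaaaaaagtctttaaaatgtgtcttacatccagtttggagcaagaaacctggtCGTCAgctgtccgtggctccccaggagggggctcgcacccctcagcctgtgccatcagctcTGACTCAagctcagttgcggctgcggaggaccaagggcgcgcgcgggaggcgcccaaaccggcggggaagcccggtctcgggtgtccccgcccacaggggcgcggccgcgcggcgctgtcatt
TGACG lay 88 bases before the start site in Gch1, 79 in Odc1 and 184 in Slc7a1 (there on the opposite strand, as CGTCA), and the AP-1 letters lay 123 bases before the start in Slc7a1. A second Slc7a1 window, chr5:148392816-148393065, is not shown and held no match of any of the 3 motifs. Ass1, the remaining gene with a promoter in the table, held CACGTG 36 bases before its start site. Of 32851 promoter windows of the same length in that table, 17.8% held TGACG, 6.02% held CACGTG and 6.75% held TGANTCA. A match describes the letters and is not evidence of binding.

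Before the gene values, the arrays themselves must be described, because 8 of the 22 stood apart. Without LPS, 4271 probe sets differed between numbers 5 and 6 and numbers 1 to 4. A signature of 3248 of them, which held none of the genes described here and no probe set with an unadjusted p of 0.05 or less for LPS, placed each array on a scale on which the other arrays without LPS average 0 (numbers 1 to 4) and 1 (numbers 5 and 6). Ctrl 5 and 6, HMB 5 and 6, LPS 3 and 6 and HMB+LPS 5 and 6 lay at 0.769 or above, and the other 14 lay at 0.301 or below. These sets were defined from the data with earlier results known. No test was run between them in the groups with LPS, and p-values from the 14 arrays alone rest on that choice. The separation of positive from negative control probe sets ran from 3.65 to 5.26 log2 units and was under 4 on 6 arrays, all among the 14. The macrophage label was checked with 8 markers, 7 of which lay above the negative control median on every array (summed level 19.05 to 20 on the log2 scale). Of 9 neutrophil and 7 lymphocyte markers, none did so in any group. Summed fibroblast markers ranged from 8.81 to 11.55 in Ctrl, 9.53 to 12.49 in HMB, 9.06 to 12.96 in LPS and 10.03 to 13.1 in HMB+LPS, and dendritic cell markers from 9.66 to 11.08, 9.8 to 11.4, 8.82 to 10.12 and 8.48 to 9.84. Their part in the results below was not tested.

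**Figure D1:**
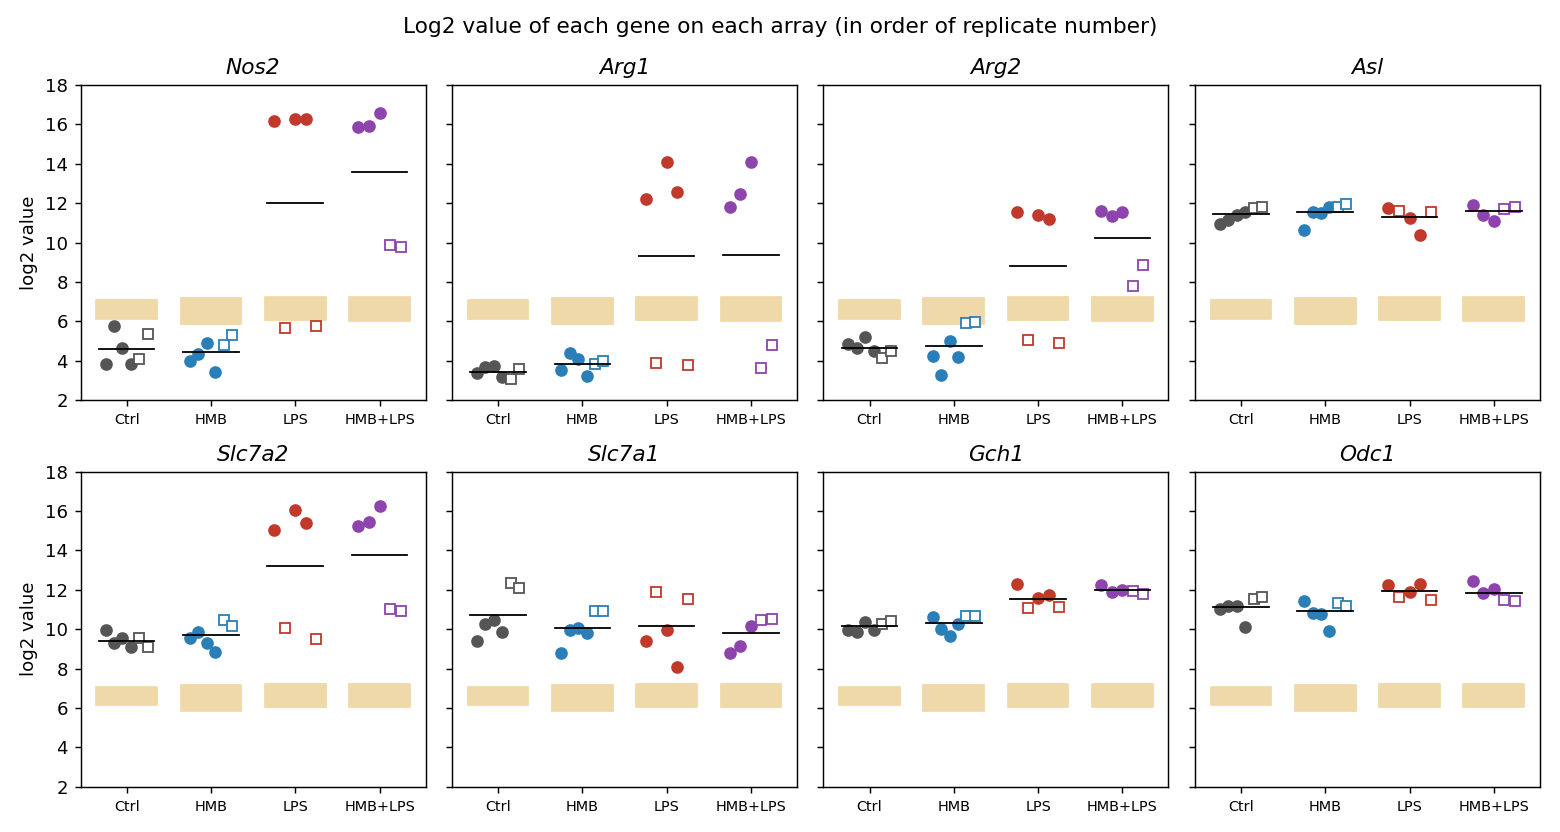
Log2 value of each of the 8 genes on each array, with the group mean as a line. Filled circles are the 14 arrays at 0.301 or below on the signature, open squares the 8 arrays at 0.769 or above, and the tan band spans the negative control medians of the group's arrays. With LPS, Nos2, Arg1, Arg2 and Slc7a2 separate into a high set of filled circles and a lower set of open squares.

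Nos2 was below background without LPS and rose far above it on most arrays with LPS. On the log2 scale its 6 Ctrl values were 3.82, 5.75, 4.65, 3.84, 4.09 and 5.37 for numbers 1 to 6, and its HMB values 3.97, 4.35, 4.89, 3.45, 4.78 and 5.31. All 12 lay below the median of the negative control probe sets of their array (5.87 to 7.24 over the arrays). With LPS, numbers 2, 4 and 5 read 16.18, 16.29 and 16.25, while numbers 3 and 6 read 5.64 and 5.74 and remained below that line. With HMB+LPS, numbers 2, 3 and 4 read 15.88, 15.89 and 16.6, and numbers 5 and 6 read 9.85 and 9.78. The LPS group therefore overlapped with Ctrl through LPS 3 and LPS 6, whereas the HMB+LPS group did not overlap with HMB. The 4 lower arrays with LPS are the ones that lay with numbers 5 and 6 on the signature.

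Over all arrays Nos2 rose with LPS by 7.44 ± 1.77 (SE, limma, adjusted p = 0.0315), from a mean of 4.59 ± 0.82 (SD, n = 6) to 12.02 ± 5.78 (SD, n = 5). In cells with HMB it rose by 9.14 ± 1.77 (adjusted p = 0.00403), from 4.46 ± 0.68 to 13.6 ± 3.47. Since the untreated values were not above background, the folds are bounds. With the dim values raised to the negative control median of their array, Nos2 was at least 49.6-fold higher with LPS and at least 135-fold higher with HMB+LPS than with HMB. On the other 14 arrays these bounds were 847-fold and 729-fold, with fitted differences of 11.73 ± 0.44 (adjusted p = 3.02e-10) and 11.96 ± 0.44 (adjusted p = 2.58e-10). The LPS call was lost when Ctrl 1, 2, 3 or 4 or LPS 2, 4 or 5 was left out (difference 6.37 to 9.03 over all 22 such fits, adjusted p up to 0.131). Without the 6 arrays of low control separation both calls were lost (4.49, adjusted p = 0.496, and 7.52, adjusted p = 0.0622). That setting removes LPS 2, LPS 5, HMB+LPS 2 and HMB+LPS 3, so only LPS 4 and HMB+LPS 4 remain of the high arrays. Here and for Arg2 and Slc7a2 below, it therefore cannot decide whether a call depends on array quality. The LPS call was also lost with array weights (adjusted p = 0.0693), with only the 2 groups in the fit (adjusted p = 0.116) and by the methods' t-test (adjusted p = 0.26). RNA was measured in bulk, so fewer responding cells and less RNA per cell cannot be told apart.

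Both arginases were high on the same 6 arrays as Nos2. Arg1, the cytosolic arginase, read 3.38, 3.67, 3.75, 3.17, 3.06 and 3.59 in Ctrl and 3.54, 4.41, 4.11, 3.22, 3.83 and 4.01 in HMB, all below the negative control median. With LPS it read 12.21, 3.87, 14.09, 12.58 and 3.78 for numbers 2 to 6, and with HMB+LPS 11.8, 12.47, 14.1, 3.61 and 4.8. It was thus high on 3 of 5 arrays in each LPS group and below background on the other 2, unlike Nos2, which lay above background on all 5 HMB+LPS arrays. The difference was 5.87 ± 1.81 for LPS against Ctrl (adjusted p = 0.102) and 5.5 ± 1.81 for HMB+LPS against HMB (adjusted p = 0.0989), and neither passed the threshold. Both did without the 8 arrays, at 9.46 ± 0.52 (adjusted p = 1.87e-08) and 8.97 ± 0.52 (adjusted p = 3.03e-08), or at least 86.9-fold and 72.5-fold. Leaving out LPS 3 alone gave 7.23 (adjusted p = 0.0247) and leaving out LPS 6 alone 7.25 (adjusted p = 0.0235). For HMB+LPS against HMB, leaving out HMB+LPS 5 gave 6.94 (adjusted p = 0.0255) and leaving out HMB+LPS 6 gave 6.64 (adjusted p = 0.0425).

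Arg2, the mitochondrial arginase, read 4.86, 4.64, 5.18, 4.48, 4.16 and 4.47 in Ctrl and 4.24, 3.29, 5.02, 4.19, 5.91 and 5.97 in HMB, again below background throughout. With LPS numbers 2 to 6 read 11.55, 5.04, 11.39, 11.21 and 4.91, and with HMB+LPS 11.59, 11.35, 11.55, 7.79 and 8.85. The 6 high arrays ran from 11.21 to 11.59, and the 4 that lay with numbers 5 and 6 were below background in LPS and above it in HMB+LPS. Above background means only above the negative control median. Arg2 did not pass the strict filter, which kept probe sets above the 0.95 quantile of the negative controls on at least 5 arrays. Arg2 rose by 4.19 ± 1.07 with LPS (adjusted p = 0.0451) and by 5.46 ± 1.07 with HMB+LPS against HMB (adjusted p = 0.00463), or at least 5.38-fold and 13.1-fold. With the replicate number as a block the LPS difference was 4.16 (adjusted p = 0.0566), which ended the call. Without the 6 arrays of low control separation neither call held (2.53, adjusted p = 0.529, and 4.52, adjusted p = 0.0678). The LPS call was also lost under the same other settings as that of Nos2, and it was lost in 15 of 22 fits that each left out 1 array, with an adjusted p of up to 0.17: those without any of the 6 Ctrl arrays, HMB 2 to 6, LPS 2, 4 or 5 or HMB+LPS 3. On the 14 arrays the difference was 6.59 ± 0.34 and 7.31 ± 0.34, at least 29.2-fold and 29.5-fold.

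Arginine enters through the cationic amino acid transporters CAT2 (Slc7a2), the inducible carrier, and CAT1 (Slc7a1), the broadly expressed carrier. Slc7a2 was above background on every array, at 9.95, 9.3, 9.54, 9.11, 9.56 and 9.11 in Ctrl and 9.55, 9.88, 9.3, 8.85, 10.47 and 10.17 in HMB. With LPS it read 15.02, 10.06, 16.08, 15.38 and 9.53, and with HMB+LPS 15.25, 15.44, 16.25, 11.01 and 10.93. LPS 6 lay within the range of Ctrl, so those groups overlapped, whereas every HMB+LPS array lay above every HMB array. The increase passed the test in cells with HMB (4.07 ± 1.08, 16.8-fold, adjusted p = 0.0354) and missed it without (3.78 ± 1.08, 13.8-fold, adjusted p = 0.0746). Leaving out HMB 1, 2, 3 or 4 or HMB+LPS 2, 3 or 4 ended the HMB+LPS call, with an adjusted p of up to 0.13, and leaving out LPS 3 (4.57, adjusted p = 0.018) or LPS 6 (4.71, adjusted p = 0.0115) produced the LPS call. The HMB+LPS call was also lost without the 6 arrays of low control separation (2.99, adjusted p = 0.317) and by the methods' t-test (adjusted p = 0.11). The LPS difference passed by limma after the strict filter (adjusted p = 0.0426) and after a filter at the negative control median (adjusted p = 0.049). Without the 8 arrays the increases were 6.02 ± 0.35 (64.8-fold, adjusted p = 2.9e-08) and 6.25 ± 0.35 (76.2-fold, adjusted p = 2.23e-08).

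Slc7a1 did not follow Slc7a2. It read 9.38, 10.27, 10.47, 9.87, 12.37 and 12.11 in Ctrl and 8.8, 9.94, 10.05, 9.83, 10.94 and 10.94 in HMB, so numbers 5 and 6 were the highest in both groups. With LPS it read 9.38, 11.87, 9.96, 8.06 and 11.54, and with HMB+LPS 8.82, 9.15, 10.16, 10.47 and 10.53, where the 8 arrays were again the highest of their groups. The LPS differences were -0.58 ± 0.63 (adjusted p = 0.75) and, in cells with HMB, -0.26 ± 0.63 (adjusted p = 0.917). Among arrays without LPS, Slc7a1 was 1.76 ± 0.29 higher (3.4-fold) in numbers 5 and 6 than in numbers 1 to 4, and the difference ran from 1.6 to 1.88 when each of the 12 arrays was left out in turn. This split follows the labels' numbers but was chosen because these arrays were known to stand apart, so the difference is a description and no p is given for it. The 4 arrays behind the higher level may be 2 pairs of shared source. It was the only gene of the 8 past the threshold in that fit, where 11.3% of all probe sets were higher and 7.95% lower, so 1 of 8 is near the background.

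Gch1 is the rate-limiting enzyme of tetrahydrobiopterin synthesis. Within the arginine list, it was the only measured gene whose every value with LPS lay above every value without LPS. The regulators Hif1a and Il4ra, described below, separated in the same way. Hif1a read 14.42 or above with LPS and 14.24 or below without, and Il4ra 12.62 or above and 12.52 or below. The share of all probe sets that separated in this way was not counted. Gch1 values in Ctrl were 9.95, 9.86, 10.38, 9.95, 10.27 and 10.44, and in HMB 10.62, 10.03, 9.68, 10.27, 10.66 and 10.67. With LPS it read 12.29, 11.06, 11.59, 11.73 and 11.14 and with HMB+LPS 12.27, 11.91, 11.97, 11.93 and 11.8. No LPS or HMB+LPS array, LPS 3 and 6 included, lay below the highest array without LPS. Gch1 rose by 1.42 ± 0.23 with LPS (2.68-fold, adjusted p = 0.00213) and by 1.65 ± 0.23 with HMB+LPS against HMB (3.14-fold, adjusted p = 0.000204). Both calls held when any array was left out, with differences between 1.24 and 1.55 and between 1.52 and 1.72. The LPS call was lost without the 6 arrays of low control separation (1.09, adjusted p = 0.129) and by the methods' t-test (adjusted p = 0.107).

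Asl, the lyase that returns citrulline to arginine, had overlapping values in all 4 groups. Its Ctrl values were 10.95, 11.16, 11.39, 11.54, 11.75 and 11.78, and LPS values for numbers 2 to 6 were 11.74, 11.59, 11.24, 10.37 and 11.54. The HMB values were 10.62, 11.54, 11.52, 11.78, 11.8 and 11.97, and the HMB+LPS values 11.91, 11.41, 11.11, 11.71 and 11.82. The LPS differences were -0.13 ± 0.27 (adjusted p = 0.882) and 0.06 ± 0.27 (adjusted p = 0.964).

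Odc1, the enzyme that makes putrescine, read 11.05, 11.16, 11.17, 10.12, 11.54 and 11.64 in Ctrl and 11.46, 10.84, 10.8, 9.93, 11.33 and 11.19 in HMB. With LPS it read 12.26, 11.64, 11.89, 12.3 and 11.5, and with HMB+LPS 12.47, 11.86, 12.04, 11.47 and 11.41. The arrays without LPS reached 11.64, so LPS 3 and 6 overlapped with Ctrl and the other 3 LPS arrays did not. The differences of 0.8 ± 0.3 (1.75-fold, adjusted p = 0.186) and 0.92 ± 0.3 (1.9-fold, adjusted p = 0.0896) missed the threshold, and without the 8 arrays they were 1.27 ± 0.36 (adjusted p = 0.0316) and 1.37 ± 0.36 (adjusted p = 0.0227).

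**Figure D2:**
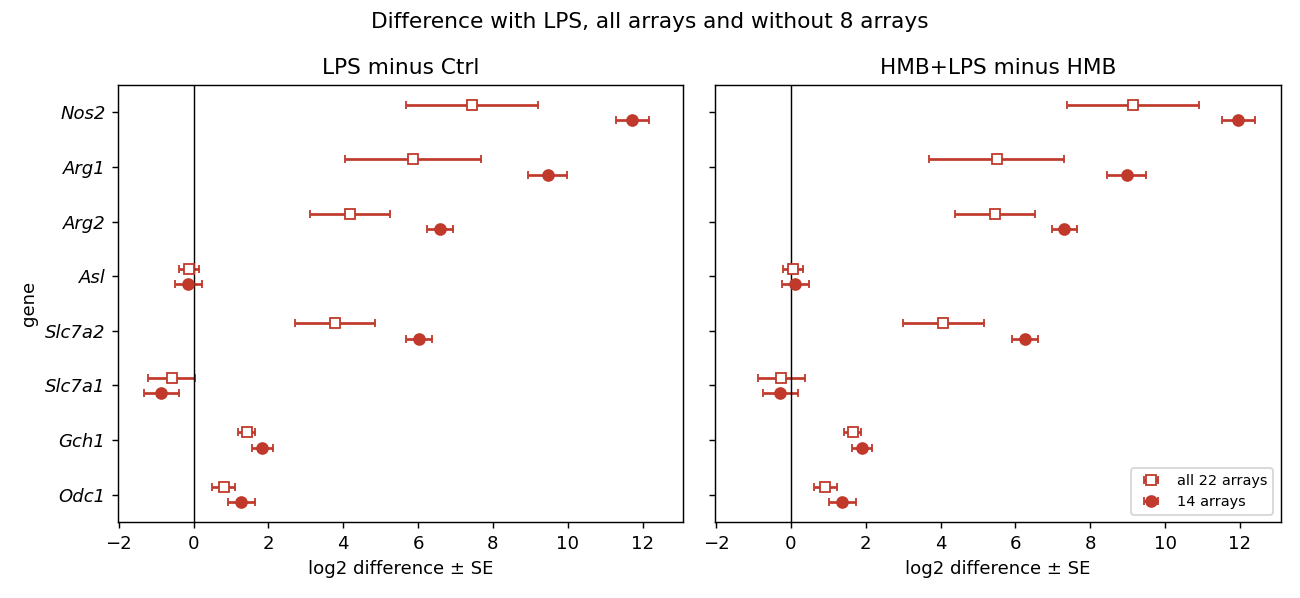
Log2 difference ± SE of each gene for LPS minus Ctrl (left) and HMB+LPS minus HMB (right), from all 22 arrays (open squares) and without the 8 arrays (filled circles). Nos2, Arg1, Arg2 and Slc7a2 move to larger differences and smaller errors without the 8 arrays, and Asl and Slc7a1 stay near 0 or below it. For Nos2, Arg1 and Arg2 the untreated values were below background.

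As a list, 3 of the 8 genes (Nos2, Arg2 and Gch1) rose with LPS and none fell, where 1.08% of all probe sets rose and 0.788% fell. In cells with HMB, 4 of 8 rose (Slc7a2 in addition) and none fell, against 1.99% and 1.54% of all. The median difference over the 8 was 2.6 and 2.86, beside 0 and -0.01 over all probe sets. Without the 8 arrays, 6 of 8 rose in both comparisons and none fell, against 4.22% higher and 6.33% lower for LPS and 4.46% and 5.82% for HMB+LPS, with medians of 3.93 and 4.07. Without the 6 arrays of low control separation, which hold 4 of the 6 high arrays, 0 of 8 and 1 of 8 rose, against 0.14% and 1.09% of all probe sets. The genes were chosen with earlier results of these data known, and the 8 arrays include the lower arrays with LPS. The contrast with all probe sets is therefore a description and not a test of the list.

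**Figure D3:**
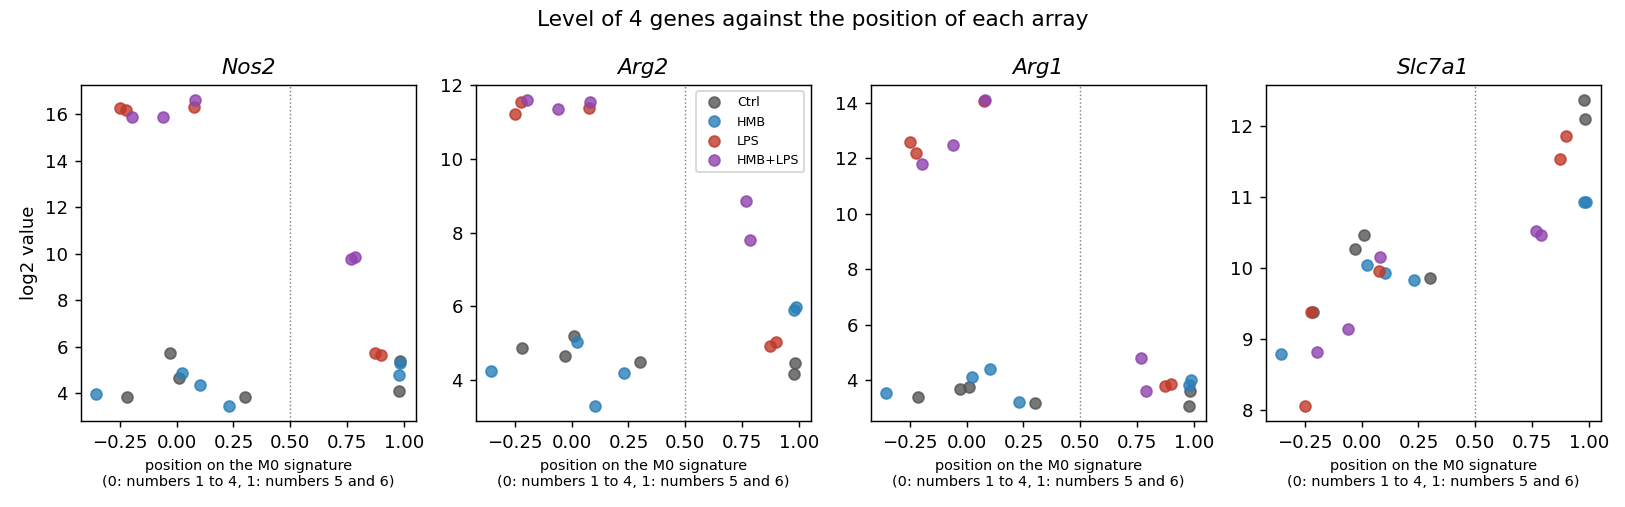
Log2 value of Nos2, Arg2, Arg1 and Slc7a1 on each array against its position on the signature (0 is the mean of the other arrays of numbers 1 to 4 and 1 that of the others of numbers 5 and 6, without LPS, and the dotted line is at 0.5). Arrays with LPS left of the line read 11.21 or above for Nos2, Arg2 and Arg1, those right of it 9.85 or below, and Slc7a1 is higher on the right within each group.

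Within the 8 arrays, with 2 arrays a group and so without a test, Nos2 and Arg2 were below background in both LPS and Ctrl. In HMB+LPS they lay above it and above HMB, by at least 3.49 for Nos2 and at least 1.99 for Arg2 on the log2 scale. Arg1 was below background in all 4 groups. Slc7a2 was 0.46 higher in LPS than Ctrl, with overlap, and 0.65 higher in HMB+LPS than HMB, without. Gch1 was 0.75 and 1.2 higher with no overlap. Odc1 differed by -0.02, with overlap, and by 0.18, without. Slc7a1 differed by -0.54 and -0.44, both without overlap, and Asl by -0.2, without overlap, and -0.12, with it. The share of all probe sets without overlap between 2 and 2 arrays was not counted, so its absence is not read as a result.

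HMB was compared with Ctrl to ask whether it alone changed these genes. No gene of the 8 was called, and neither was any of the 22206 probe sets (0%), of which 410 had an unadjusted p under 0.05 by limma. The differences were largest for Slc7a1 (-0.66 ± 0.6) and Arg1 (0.42 ± 1.72), all with an adjusted p of 1. Each SE comes from 1 spread shared by the 4 groups, so the split LPS groups widen it. The SD of Arg1 was 0.28 in Ctrl and 0.42 in HMB, but 5.05 in LPS and 4.8 in HMB+LPS. For such genes this fit could hardly call a small effect of HMB. A limma fit of only the Ctrl and HMB arrays also called 0 probe sets. Slc7a1 was lower with HMB in 6 of 6 pairs of the same number, with pair differences of -0.58, -0.33, -0.42, -0.04, -1.43 and -1.17 (mean pair difference -0.66, SD 0.53), and 1.82% of all probe sets were lower in all 6 pairs. Arg1 was higher in 6 of 6 pairs, by 0.05 to 0.77, with both arrays of each pair below background, and 1.45% of all probe sets were higher in all 6. In a fit of the 12 arrays with the number as a block, the adjusted p was 0.907 for each of these genes, and 0 probe sets were called.

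The pair differences of the other genes pointed both ways. Arg2 was -0.62, -1.35, -0.16 and -0.29 in numbers 1 to 4 and 1.75 and 1.5 in numbers 5 and 6, all between values below background. Slc7a2 was -0.4, 0.57, -0.24 and -0.25 in numbers 1 to 4 and 0.9 and 1.07 in numbers 5 and 6. Nos2 was higher in 3 of 6 pairs, Gch1 and Asl in 5 of 6 and Odc1 in 1 of 6.

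**Figure D4:**
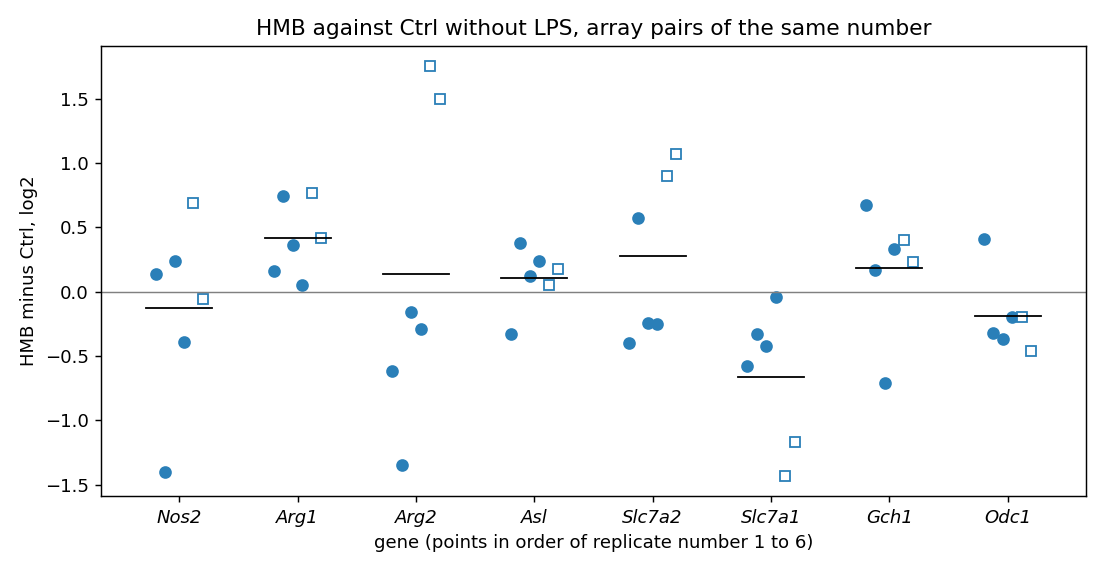
HMB minus Ctrl, log2, for each gene and each pair of arrays of the same number (circles are numbers 1 to 4, open squares numbers 5 and 6, the line is the mean). Slc7a1 lies below 0 in all 6 pairs and Arg1 above 0 in all 6, and Arg2 and Slc7a2 are highest in numbers 5 and 6.

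In the presence of LPS, HMB gave no call either, in the 8 genes or in any probe set (0% called, 686 with an unadjusted p under 0.05 by limma). The differences from LPS alone were 1.58 ± 1.85 for Nos2, 1.41 ± 1.12 for Arg2, 0.56 ± 1.12 for Slc7a2, 0.41 ± 0.24 for Gch1, 0.3 ± 0.28 for Asl, 0.05 ± 1.89 for Arg1, -0.07 ± 0.31 for Odc1 and -0.34 ± 0.66 for Slc7a1, all with an adjusted p of 1. The positive means of Nos2 and Arg2 come from the arrays that lay with numbers 5 and 6. There HMB+LPS 5 and 6 averaged 9.82 for Nos2 against 5.69 in LPS 3 and 6, and 8.32 for Arg2 against 4.97, with no overlap. LPS 3 and 6 were below background for both genes, so these are bounds of at least 3.72 for Nos2 and at least 2.23 for Arg2 on the log2 scale. In the same arrays Slc7a2 was 1.18 higher and Gch1 0.76 higher, and Slc7a1 differed by -1.21, again with no overlap. Asl (0.2) and Odc1 (-0.13) did not overlap either, and Arg1 was below background in both groups. The share of all probe sets without such overlap was not counted, so the lack of overlap is not read as particular to these genes. Among the other 14 arrays the HMB+LPS and LPS values overlapped for all 8 genes, with differences of -0.12 for Nos2, -0.17 for Arg1, 0.11 for Arg2 and 0.15 for Slc7a2. These values rest on 2 against 2 and 3 against 3 arrays. The difference between both HMB effects was called for 0% of probe sets (465 with an unadjusted p under 0.05 by limma). It was 1.71 ± 2.5 for Nos2, 1.27 ± 1.52 for Arg2, -0.36 ± 2.55 for Arg1 and 0.29 ± 1.52 for Slc7a2. For Slc7a1 it was 0.32 ± 0.89, for Gch1 0.23 ± 0.33, for Asl 0.19 ± 0.38 and for Odc1 0.12 ± 0.42.

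Genes around this pathway were taken from lists chosen with earlier results of these data known. Of 17 measured regulators of Nos2 and Arg1, 2 were called higher and 2 lower with LPS (1.08% and 0.788% of all probe sets), and the same 4 in cells with HMB (1.99% and 1.54%). Hif1a, a hypoxia-inducible factor subunit, rose by 1.3 ± 0.3 (adjusted p = 0.0282) and by 1.5 (adjusted p = 0.00583). Il4ra, the interleukin-4 receptor chain, rose by 1.89 ± 0.42 (adjusted p = 0.0213) and by 1.98 (adjusted p = 0.00855). Pparg, a lipid-sensing nuclear receptor, fell by 5.57 ± 1.02 (adjusted p = 0.00545) and by 5 ± 1.02 (adjusted p = 0.00635), and on the 14 arrays it was below background with LPS, at least 45.4-fold and 39.8-fold lower. Epas1, another hypoxia-inducible factor subunit, was called lower (adjusted p = 0.000337 and 0.0051) but lay below background on every LPS and HMB+LPS array, and on 5 of 6 HMB arrays, so no size is given and the call rests on signals near or under background.

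Of the other lists, none had a call for LPS against Ctrl over all arrays. For HMB+LPS against HMB, Nostrin (-1.12, adjusted p = 0.0448), which traffics endothelial nitric oxide synthase, and Ddah2 (-2.53, adjusted p = 0.0269), a member of the family that breaks down the synthase inhibitor dimethylarginine, were called lower among 9 measured genes of nitric oxide synthesis and sensing. Ddah2 was above background on only 1 of 5 HMB+LPS arrays, so its difference is no measured size. Padi2, which turns arginine residues in proteins into citrulline, fell among 10 genes of arginine modification (-2.67, adjusted p = 0.038). It was above background on only 3 of 5 HMB+LPS arrays, so this difference is no measured size either.

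Without the 8 arrays, 5 of 13 genes of ornithine, proline, creatine and the urea cycle fell in each comparison and none rose, where 6.33% and 5.82% of all probe sets fell. Among them Ckb, brain creatine kinase, fell by 3.34 and by 3.13, Gatm, the entry enzyme of creatine synthesis, by 2.95 and by 2.82, Aldh18a1, of proline synthesis, by 1.8 and by 1.32, and Oat, ornithine aminotransferase, by 1.41 and by 1.44. Gatm was above background on only 2 of these 3 LPS arrays. Of 13 polyamine genes, spermidine synthase Srm fell by 2.09 and by 2.67 and spermine synthase Sms by 0.87 and by 0.86, while spermine oxidase Smox rose by 1.63 and by 1.68. Ddah2 was below background with LPS on these arrays and at least 4.81-fold and 4.49-fold lower, and Padi2 was called lower in both (-3.92 and -4.22), above background on only 2 of 3 LPS and 1 of 3 HMB+LPS arrays. Azin2, an antizyme inhibitor, rose with LPS (1.92, adjusted p = 0.00121). The 6 measured tetrahydrobiopterin genes other than Gch1 and the 9 cationic amino acid transport genes had no call. Of the 17 regulators, 4 rose and 3 fell in each comparison, where 4.22% and 4.46% of all probe sets rose.

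Between numbers 5 and 6 and numbers 1 to 4 without LPS, 5 of 10 genes of arginine modification were higher, all arginine methyltransferases (Prmt7 by 2.63, Prmt6 by 1.83, Prmt3 by 1.81, Prmt5 by 1.55 and Prmt1), and none was lower. Of 13 polyamine genes 5 were higher, Srm by 1.78 and Eif5a, the hypusine-bearing translation factor, by 1.48 among them, and 2 were lower, with Azin2 at -1.44. Slc7a6 (1.49), an exchanger of cationic and neutral amino acids, and its partner chain Slc3a2 (0.76) were higher, and Slc38a9, a lysosomal arginine sensor, was lower (-1.03). Slc6a14 was called higher too, but was below background on all 12 arrays. Ddah2 (-2.7) and Nostrin (-1.2) were lower there too. Of the 17 regulators, not named here, 1 was higher and 4 were lower. Of the 6 tetrahydrobiopterin genes 1 was higher, as was 1 of the 13 genes of ornithine, proline, creatine and the urea cycle. These shares stand beside the 11.3% and 7.95% of all probe sets given above.

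**Figure D5:**
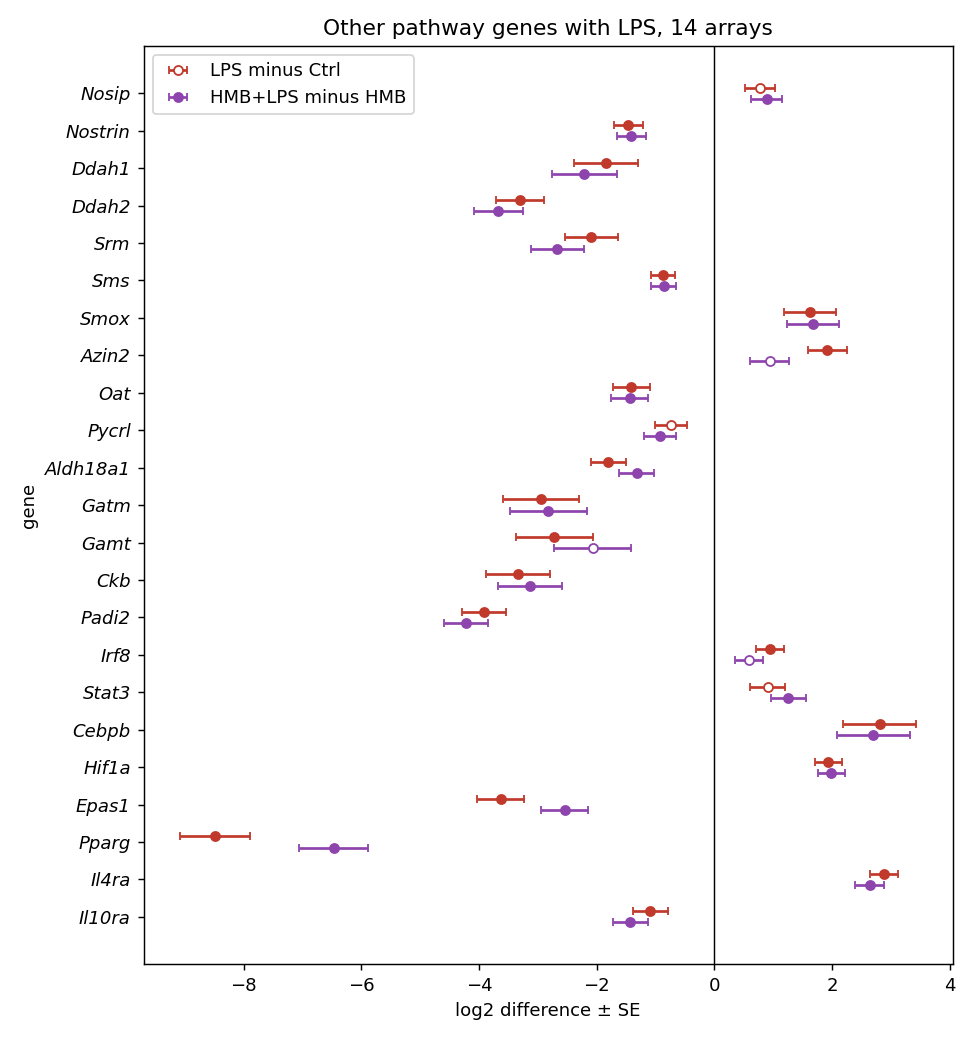
Log2 difference ± SE of the other pathway genes called in either comparison without the 8 arrays, for LPS minus Ctrl (red) and HMB+LPS minus HMB (purple), with filled points past the threshold. Ddah2, Pparg, Epas1 and Ddah1 were below background in the LPS groups, so their points are fitted values and not measured sizes. Gatm and Gamt were below background on some LPS arrays and Padi2 on some arrays of both LPS groups, so their sizes are not fully measured either. Ckb, Gatm and Padi2 lie far below 0 and Il4ra and Hif1a above it.

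The 5 genes with the highest Pearson correlation with Nos2 over the 22 arrays, among 19504 others, were Socs3 (0.985), U90926 (0.985), Il4ra (0.984), Upp1 (0.983) and Arg2 (0.982). For Arg1 they were Il6 (0.991), Slc7a2 (0.985), Gipr (0.982), Dcn (0.981) and Itgb8 (0.981). These values mostly describe the gap between 6 high arrays and 16 others. Within the 6 high arrays alone, Arg2 had a correlation of 0.022 with Nos2, and Slc7a2 of 0.952 and Il6 of 0.928 with Arg1. Within the other 16 the correlation with Nos2 was 0.881 for Arg2 and Socs3, where only HMB+LPS 5 and 6 had Nos2 and Arg2 above background, and the correlation of Il6 with Arg1 was 0.076. Dcn is also on the fibroblast marker list, of whose 7 measured genes 2 rose and 2 fell in each LPS comparison without the 8 arrays. The arrays share groups and signal levels, so these are descriptions.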

How the data were processed

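RNA of mouse BMDM was labelled and hybridised by the authors to Clariom S arrays. The deposited table holds 1 log2 value per probe set and array (range 0.973 to 19.44), already normalized. For the software, background correction and normalization, nothing is given in the sources used here. Of 28846 probe sets, 6640 were controls and 22206 were tested, of which 19572 had 1 gene symbol in the platform annotation, 0 several and 2634 none. Precision is limited by the number of arrays.

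Values were fitted with limma 3.58.1 (R 4.3.3) as 4 group means over all 22 arrays, with two-sided Benjamini-Hochberg adjusted p under 0.05 over all 22206 probe sets, after tests on simulated data. The methods name t-tests, which were run as an alternative. Samples were grouped by the treatment label. A value was called below background where it lay under the median of 5222 negative control probe sets of its array, and bounds set dim values to that median. The members and the lists were chosen with earlier results of these data known. All measured members were given in the comparisons over all 22 arrays, and only some of them in the other fits. Up to 4 genes a list with the smallest adjusted p past the threshold were named, but not for every list and comparison. Prmt1 and Ddah1 were added after their values were seen. The 5 genes most like Nos2 and Arg1 were named as well.

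Same-numbered Ctrl and HMB arrays deviated together (correlations 0.183 to 0.627 in 6 of 6 pairs) and were taken as pairs on that ground alone, although only 4 of 6 correlated best with their own number. LPS and HMB+LPS arrays deviated together for numbers 2, 4 and 6 but not for numbers 3 and 5 (-0.516 to 0.615). The labels' design text counts 5 arrays a group where 6 were given for Ctrl and HMB.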

Additional observations from a re-analysis of the deposited data

Results flagged for a closer look

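Asl on array HMB 1 read 10.62, apart from the other 5 HMB arrays, whose lowest value was 11.52. It was 1 of 32 sets of group values tested for a sample apart, and chance flags about 5% of such sets. HMB 1 is among the 6 arrays of low control separation, and its part in the value was not tested.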

How the results depend on the processing

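Quantile normalization, median centring and trended, robust moderation left the number of members called as it was in each comparison, and HMB gave 0 calls under every alternative. For LPS minus Ctrl (3 called), 1 was called with array weights, 0 without the 6 arrays of low control separation, 6 without the 8 arrays, 1 with only the 2 groups and 0 by the methods' t-test after adjustment, and 1 to 5 when 1 array was left out (1 without Ctrl 1, 2, 3 or 4 or LPS 2, 4 or 5, and 5 without LPS 3 or 6). For HMB+LPS minus HMB (4 called), 6 were called with array weights (Arg1 6.16, adjusted p = 0.0216, and Odc1 1.08, adjusted p = 0.027, in addition), 6 without the 8 arrays, 3 by the methods' t-test, 1 without the arrays of low control separation and 3 to 5 with 1 array left out. For the numbers without LPS (1 called), the strict filter gave 2 (Asl in addition) and array weights 3 (Gch1 and Odc1), and leaving out 1 array gave 1 each time. With the replicate number as a block, 2 were called for LPS minus Ctrl (Arg2 lost, 4.16, adjusted p = 0.0566), 4 for HMB+LPS minus HMB, 0 for HMB minus Ctrl, 0 for HMB+LPS minus LPS and 0 for the interaction of HMB and LPS, and the random block gave 1 for the numbers. Same-numbered LPS and HMB+LPS arrays deviated in opposite directions for number 3 (correlation -0.515) and number 5 (-0.516). For numbers 2, 4 and 6 they deviated together (0.615, 0.545 and 0.599). LPS 3 correlated best with HMB+LPS 5 (0.677) and LPS 5 with HMB+LPS 2 (0.499). The numbers thus do not pair all arrays with LPS, and a call lost under this block is not read as a weaker effect. The strict filter dropped Arg2 and gained Slc7a2 (adjusted p = 0.0426) for LPS minus Ctrl, with 3 called. For HMB+LPS minus HMB it dropped Arg2 and gained Odc1 (adjusted p = 0.0457), with 4 called. A filter at the negative control median called 4 for LPS minus Ctrl (Slc7a2 in addition, adjusted p = 0.049) and 4 for HMB+LPS minus HMB. That filter and a 2-group block fit for HMB minus Ctrl were added after seeing the data. Nos2 and Arg1 passed the strict filter, and Nos2, Arg1 and Arg2 the other, only through arrays with LPS. The counts after a filter are therefore no further support for a rise of these genes. The other probe set of a member could not be tried, since each has 1.

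Over 48 gene results and 1474 settings, 1348 kept direction and side of the threshold, 44 lost and 19 gained a call and 63 changed sign. None of the sign changes was in a called result. Asl in HMB+LPS minus HMB changed to -0.12 with array weights, -0.17 without arrays of low control separation and -0.08 with the block. Slc7a1 without arrays of low control separation was 0.1 for LPS minus Ctrl and 0.04 for HMB+LPS minus HMB. Odc1 in HMB+LPS minus LPS was 0.01 with array weights. The difference between both HMB effects with array weights was 0.94 for Arg1, -0.04 for Asl and -0.11 for Slc7a1, and without arrays of low control separation -0.1 for Asl and -0.06 for Slc7a1. Without the 8 arrays, HMB minus Ctrl was -0.6 for Arg2 and -0.08 for Slc7a2, and HMB+LPS minus LPS was -0.12 for Nos2, -0.17 for Arg1 and 0.24 for Slc7a1. For the numbers, Arg1 was 0.06 after quantile normalization, and with only Ctrl arrays Arg2 was -0.48 and Slc7a2 -0.14. With 1 array left out, LPS minus Ctrl ran from -0.24 to 0.1 for Asl and HMB+LPS minus HMB from -0.13 to 0.18 for Asl. HMB minus Ctrl ran from -0.3 to 0.1 for Nos2, -0.1 to 0.44 for Arg2 and -0.39 to 0.01 for Odc1. HMB+LPS minus LPS ran from -0.02 to 2.64 for Nos2, -1.33 to 1.49 for Arg1, -0.36 to 1.28 for Slc7a2, -0.86 to 0.09 for Slc7a1 and -0.22 to 0.04 for Odc1. The difference between both HMB effects ran from -1.75 to 1.07 for Arg1, -0.04 to 0.31 for Asl, -0.63 to 1 for Slc7a2, -0.2 to 0.75 for Slc7a1 and -0.08 to 0.32 for Odc1, and Arg1 for the numbers from -0.14 to 0.1. The cause of these changes was not tested.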
